A study of Mus musculus with 60 samples.

Results

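The 28 genes described here encode the inhibitory apparatus of the mouse hippocampus: the enzymes and transporters of the transmitter GABA, its receptors, the scaffold that holds them at the synapse, the chloride transporters that set their effect, and markers of the neurons that release it. They were taken by name from a table of 47643 gene symbols. All 28 averaged at least 1 TPM over the 60 libraries, and all were among the 15608 genes tested. TPM is a transcript abundance per gene length, scaled to the same sum in every library, so that levels of different genes can be set side by side.

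The tissue was hippocampus of female mice, 2 months of age per the labels. One set of mice received melanoma cells that cause cachexia (CAC), another received melanoma cells that do not (NCAC), and controls were mock injected (Con). Cachexia is a wasting of muscle and fat that accompanies some tumours. Sampling at 2, 4, 6 and 8 wk after injection gave n = 4, 5, 5 and 7 for CAC, n = 5, 5, 4 and 5 for NCAC and n = 5 at each week for Con. The labels disagree on strain, since each sample is labelled C57BL6/J and the design text gives NCI Ath/nude. The extraction text also mentions LLC cells, another tumour line, at a time that matches no group here. The labels name neither the melanoma lines nor any pooling of animals, so each injection stands for cell lines of unknown number. They call the samples biological replicates without naming the animals, and p-values measure the spread between these libraries.

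GABA is made from glutamate by the glutamate decarboxylases Gad1 and Gad2, packed into vesicles by Slc32a1 and broken down by the transaminase Abat. It opens chloride channels assembled from GABA-A subunits, which gephyrin (Gphn) and neuroligin 2 (Nlgn2) hold opposite the release site, and it acts more slowly through the paired GABA-B subunits Gabbr1 and Gabbr2. In the hippocampus most of it comes from sparse interneurons, which fall into classes marked by genes such as Pvalb, Calb2 and Reln. In such bulk tissue, fewer cells of a type and less RNA per cell cannot be told apart.

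The promoters of 4 subunit genes are shown because 3 of them, Gabrg1, Gabrb2 and Gabra4, had lower levels at 8 wk than at 2 wk in CAC libraries under every setting tried, while Gabrb1 starts beside Gabra4 and did not pass the test. Each window, from RefSeq on GRCm38.p6, runs from 250 bases before to 50 bases from the annotated start, 5′ to 3′ on the gene's strand. Capitals mark the letters of the motifs searched. The windows are chr5:70842568-70842867 (minus strand) for Gabrg1, chr11:42420190-42420489 (plus strand, the first of 3 windows of the gene) for Gabrb2, chr5:71658259-71658558 (minus strand) for Gabra4 and chr5:71657671-71657970 (plus strand, the first of 2) for Gabrb1.
Gabrg1: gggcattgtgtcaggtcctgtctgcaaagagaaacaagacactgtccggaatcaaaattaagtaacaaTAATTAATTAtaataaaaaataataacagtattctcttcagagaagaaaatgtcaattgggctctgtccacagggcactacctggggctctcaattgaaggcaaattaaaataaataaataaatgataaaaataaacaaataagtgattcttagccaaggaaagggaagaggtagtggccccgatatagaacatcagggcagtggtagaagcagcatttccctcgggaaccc
Gabrb2: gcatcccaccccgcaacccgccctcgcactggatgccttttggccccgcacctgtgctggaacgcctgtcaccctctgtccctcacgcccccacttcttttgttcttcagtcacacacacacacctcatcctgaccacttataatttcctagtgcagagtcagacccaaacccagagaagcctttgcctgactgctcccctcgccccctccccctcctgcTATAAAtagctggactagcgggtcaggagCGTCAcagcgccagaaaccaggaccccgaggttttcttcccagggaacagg
Gabra4: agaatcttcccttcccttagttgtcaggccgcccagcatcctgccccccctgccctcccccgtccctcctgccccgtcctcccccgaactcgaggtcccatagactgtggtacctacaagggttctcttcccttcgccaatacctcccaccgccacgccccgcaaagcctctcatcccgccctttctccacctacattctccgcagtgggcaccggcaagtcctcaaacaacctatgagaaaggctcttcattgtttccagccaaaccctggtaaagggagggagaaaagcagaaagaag
Gabrb1: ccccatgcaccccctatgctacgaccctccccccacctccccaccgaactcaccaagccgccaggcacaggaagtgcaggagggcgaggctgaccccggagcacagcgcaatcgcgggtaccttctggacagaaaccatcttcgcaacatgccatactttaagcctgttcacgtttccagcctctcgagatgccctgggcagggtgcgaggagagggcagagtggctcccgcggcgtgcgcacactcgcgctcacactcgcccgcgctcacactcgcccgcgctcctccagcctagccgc

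The 4 windows differ in base composition. That of Gabrg1 has 38.3% GC and 3 CG pairs, that of Gabrb2 59.0% and 11, that of Gabra4 58.7% and 12, and that of Gabrb1 66.0% and 25, against medians of 52.7% and 7 over all 32851 windows. In the Gabrb2 window the letters TATAAA lie 30 bases before the start, and TGACG is read on the other strand 1 base before it. In the Gabrg1 window TAATTA occurs at 182 and at 178 bases before the start, as overlapping matches. None of the motifs searched was found in the windows of Gabra4 and Gabrb1.

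RefSeq windows were found for 24 of the 28 genes, and none was listed for Slc12a2, Calb2, Abat and Gabrd. On either strand, TATAAA was present for 5 of the 24 genes (Gad1, Gabra3, Gabrb2, Lhx6 and Sox6) and in 13.6% of all windows. TGACG, the start of the cAMP response element TGACGTCA, was present for 4 (Gad2, Gabrb2, Nlgn2 and Sox6) and in 20.8% of all windows, and the whole element for 0 and in 1.79%. The homeodomain core TAATTA, a sequence read by factors of the Dlx and Lhx kind, was present for 2 (Gabrg1 and Adarb2) and in 5.29%. The E-box CACGTG was present for 2 (Slc12a5 and Reln) and in 7.15%, and the GC box GGGGCGGGG for 4 (Gabrg3, Gabbr1, Nlgn2 and Reln) and in 11.4%. The palindromic glucocorticoid response element was present for 0 and in 0.00913%. A match is a description of the letters in a window and is no binding site, and a gene with several windows was counted once.

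Some of the subunit genes are neighbours. Gabrg1, Gabra2, Gabra4 and Gabrb1 lie within 1.4 Mb at chr5:70751047-72149037 on mm10 in the GENCODE M21 annotation. Gabra4, on the minus strand, and Gabrb1, on the plus strand, overlap by 196 bases at their 5′ ends, and their RefSeq starts are 387 bases apart. Whether counting used the strand is not given in the sources used here, so reads in this overlap cannot be assigned with certainty.

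Mean levels over the 60 libraries ran from 6.84 TPM for Sox6 to 301 TPM for Gabbr1. Among the synthesis and handling genes, Gad1 averaged 177 TPM, Gad2 123 TPM, Abat 136 TPM and the vesicular transporter Slc32a1 45.2 TPM. Of the GABA-A subunits, Gabra5, which is typical of hippocampal pyramidal cells, led with 212 TPM, followed by Gabra2 with 155 TPM. Gabrb1 (83.1 TPM), Gabra4 (77.3 TPM), Gabra3 (62.2 TPM) and Gabrb2 (56.2 TPM) were intermediate. Gabrd, the subunit of receptors outside synapses, averaged 28.8 TPM, and the gamma subunits Gabrg1 and Gabrg3 averaged 11.5 and 9.44 TPM. Gabbr2 stood at 165 TPM. The scaffold protein Gphn averaged 85.7 TPM and the adhesion protein Nlgn2 122 TPM. The chloride exporter Slc12a5 averaged 223 TPM and the importer Slc12a2 44.1 TPM.

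The interneuron markers were lower on the whole. The calcium-binding proteins Calb2 and Pvalb averaged 77.6 and 76.4 TPM. The neuregulin receptor Erbb4 averaged 24.7 TPM, Adarb2, a gene of the RNA-editing family, 24.3 TPM, and the neurexin ligand Nxph1 22.7 TPM. The transcription factors Lhx6, Dlx1 and Sox6, which act in the development of interneurons, averaged 16.4, 11.3 and 6.84 TPM, and the secreted protein Reln 15.4 TPM. Within groups the SD of a gene was 0.09 to 0.36 on the log2 scale with a median of 0.175. It was widest for Calb2 (0.36), Gabrd (0.32) and Slc12a2 (0.29). The means of the 12 groups spanned 0.11 for Gabbr2 to 0.79 for Slc32a1, with a median of 0.43.

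**Figure D1:**
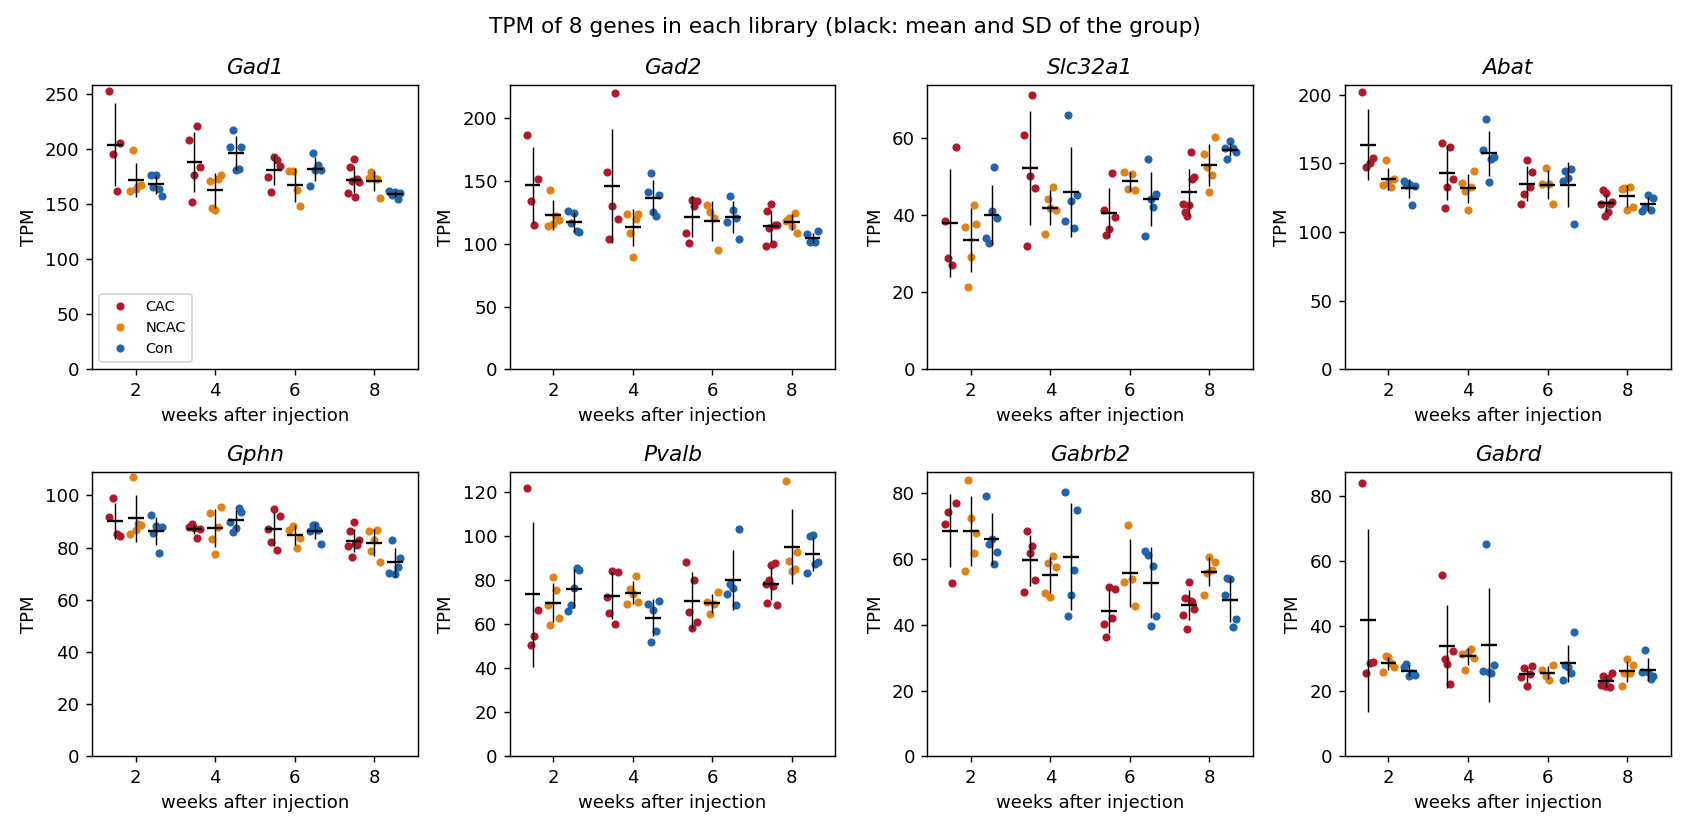
TPM (linear axis from 0) of Gad1, Gad2, Slc32a1, Abat, Gphn, Pvalb, Gabrb2 and Gabrd in each library against weeks after injection, with CAC, NCAC and Con side by side at each week; points are libraries, and black bars are group means with their SD. Slc32a1 at 8 wk sits at 39.8 to 56.4 TPM in CAC and at 54.6 to 59.1 TPM in Con, and 1 CAC library at 2 wk stands at 83.9 TPM for Gabrd.

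Depth recovered from the table was 32388197 to 42047145 reads per library. A list of 6 dentate granule cell markers summed to 119 to 280 TPM and 7 excitatory neuron markers to 3210 to 5000 TPM in every library, and no marker of the lists used was at 0 in all libraries. Striatal genes were far above the other libraries in 3: replicate 1 of CAC at 2 wk, replicate 1 of CAC at 4 wk and replicate 2 of Con at 4 wk. There the mean of 10 striatum markers was 3.54, 3.79 and 3.90 log2 units over the median library, and the dopamine receptor Drd1, for example, stood at 65.2, 70.8 and 77.4 TPM. The same CAC library at 2 wk was also 2.18 log2 units over the median for thalamus markers. Striatum holds many GABA neurons, and values without these 3 libraries are given beside many, but not all, of the results that they move.

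Differences between groups were tested with limma on log2(TPM + 0.5), with 12 group means over all libraries. Adjusted p-values are Benjamini-Hochberg values over the 15608 genes with a threshold of 0.05, and differences are log2 values given with their standard error.

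In the tumour comparisons few of the 28 genes passed. Against Con, 1 gene was higher in CAC at 2 wk (Abat), where 1.72% of all genes were called higher and 1.98% lower (3.7% in either direction). At 4 wk 0 passed, where 0.487% of all genes were higher and 0.314% lower (0.801% together). At 6 wk 0 passed, where 0.179% were higher and 0.0705% lower (0.25% together). At 8 wk 1 was higher (Gphn) and 0 were lower, where 11.3% of all genes were called higher and 3.2% lower (14.5% together). For the 0 at 4 wk and the 0 at 6 wk, limma's voom on recovered reads also gave 0. Without adjustment, p was under 0.05 for 7, 5, 2 and 2 of the 28 at 2, 4, 6 and 8 wk. The share of all genes at that unadjusted p is not given here. Such counts, here and below, are therefore no result about the 28 genes. The median difference of the 28 genes at 8 wk was 0.07, beside 0.05 over all genes tested. The 95% intervals of 25 of the 28 lay within 0.5 log2 units of no difference at 8 wk, and a p that misses the threshold does not show that levels were alike.

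**Figure D2:**
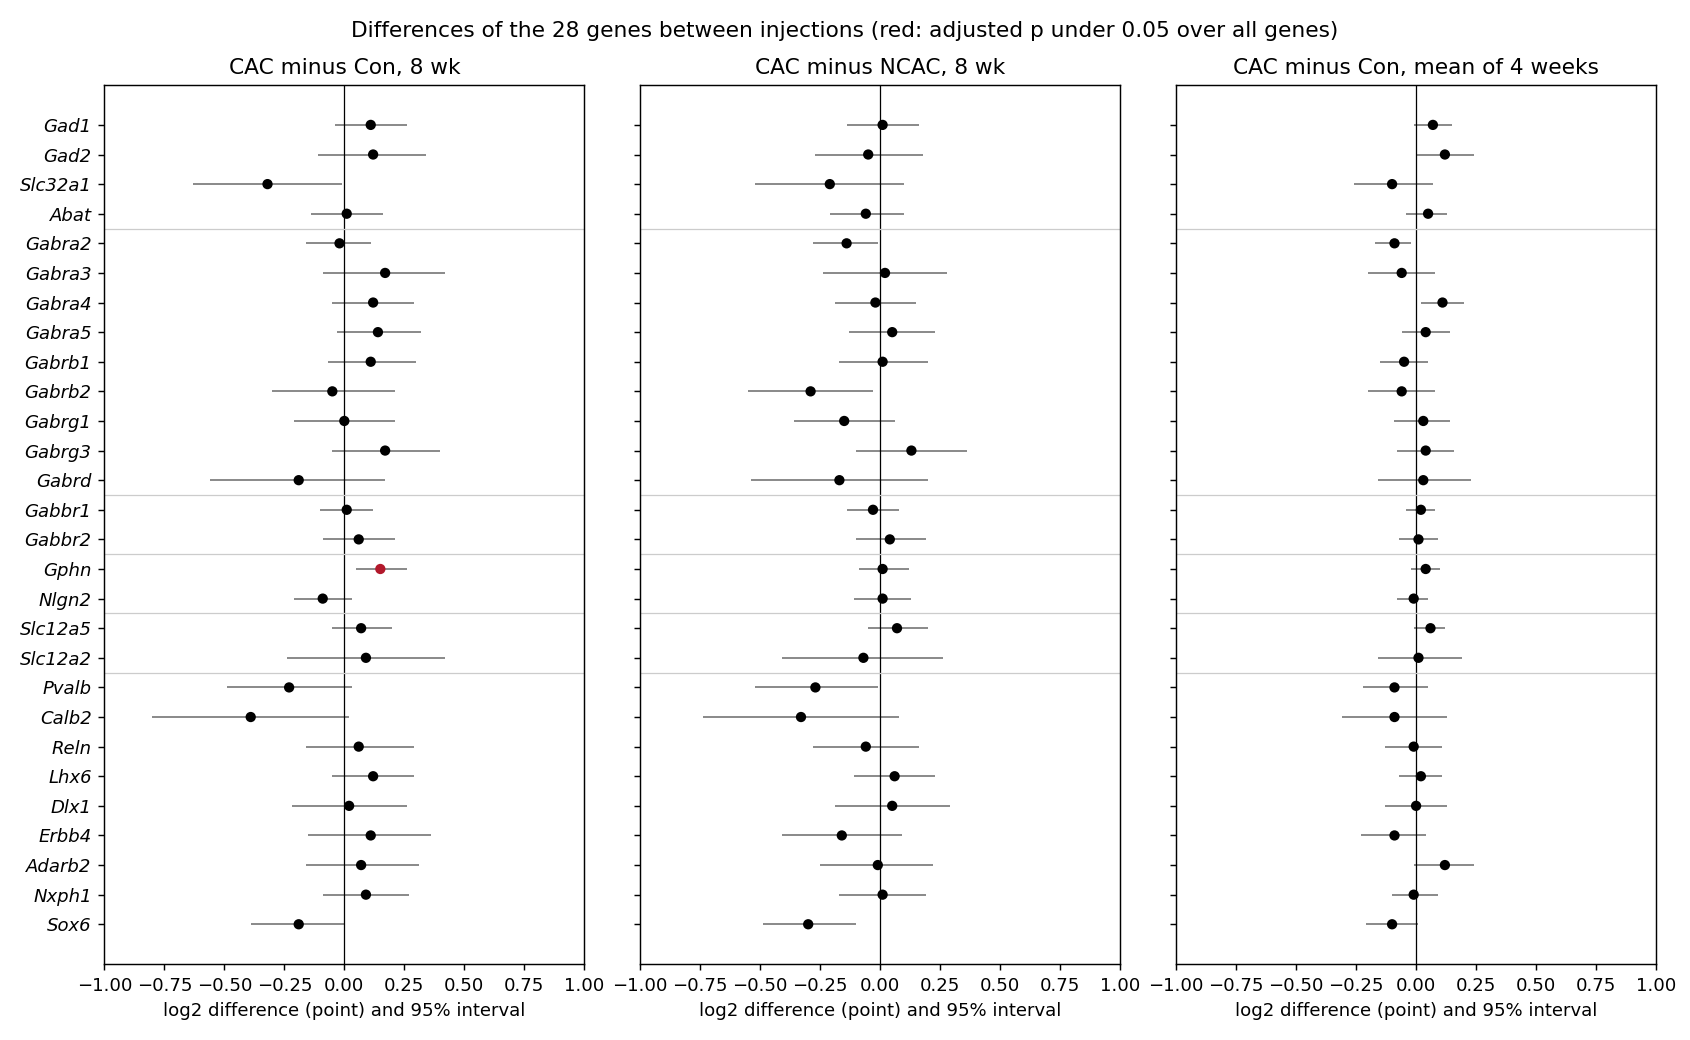
Log2 differences (points) with 95% intervals (lines) for the 28 genes, grouped by role from top to bottom, in CAC minus Con at 8 wk, CAC minus NCAC at 8 wk and CAC minus Con over the mean of the 4 weeks; red points have an adjusted p under 0.05. Gphn is the single red point, in the first panel, and over the mean of the 4 weeks all differences lie between -0.10 and 0.12.

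Gad1, the decarboxylase that makes most GABA in the cell body, stood at 162, 196, 206 and 253 TPM in CAC libraries at 2 wk, against 162, 164, 166.5, 168 and 199.7 TPM in NCAC and 157, 164, 166, 176.5 and 176.6 TPM in Con. The lowest CAC library lay within the Con range and the others above it, while NCAC reached into the CAC range. At 4 wk Gad1 measured 152, 177, 184, 209 and 221 TPM in CAC, 145, 147, 171, 173.5 and 177 TPM in NCAC and 181, 182, 202, 202.4 and 217 TPM in Con. Here CAC spanned the Con range, while the highest NCAC library lay below the lowest Con library. At 6 wk the values were 161, 175, 185, 191 and 193 TPM in CAC, 148, 163, 180.0 and 180.3 TPM in NCAC and 167, 181, 181.5, 186 and 197 TPM in Con. At 8 wk the lowest, median and highest CAC libraries had 157, 171 and 191 TPM, against 156, 173.1, 173.7, 173.9 and 179.5 TPM in NCAC and 155, 159, 160.0, 161 and 162 TPM in Con. All groups overlapped at 6 and at 8 wk. The CAC minus Con difference was 0.26 ± 0.09 at 2 wk (adjusted p = 0.0653), 0.15 ± 0.08 without the striatum-rich libraries (adjusted p = 0.332), and 0.11 ± 0.08 at 8 wk (adjusted p = 0.323). Over the mean of the 4 weeks Gad1 was higher in CAC than in NCAC by 0.14 ± 0.04 (adjusted p = 0.0167). It was the 1 of 28 genes called there, where 11.6% of all genes were higher and 4.11% lower (15.7% together). Without the 3 striatum-rich libraries that difference was 0.10 ± 0.04 (adjusted p = 0.0584).

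Gad2, the decarboxylase of nerve terminals, had 115, 134, 152 and 186 TPM in CAC at 2 wk, 114.5, 116, 119, 122 and 143 TPM in NCAC and 109, 110.4, 116, 125 and 126 TPM in Con. At 4 wk it had 104, 119.9, 129.7, 157 and 219.9 TPM in CAC, 89.6, 109, 119, 123.9 and 123.9 TPM in NCAC and 122, 125, 139, 141 and 156 TPM in Con. The CAC library at 219.9 TPM is replicate 4, where striatum markers were 1.54 log2 units over the median library. At 6 wk Gad2 had 100.5, 108.5, 130.1, 134 and 135.0 TPM in CAC, 95.2, 121, 125.5 and 131 TPM in NCAC and 104, 117, 121, 127 and 138 TPM in Con. At 8 wk the lowest, median and highest CAC values were 98.4, 115 and 132 TPM, against 109, 114, 118.5, 121 and 125 TPM in NCAC and 101, 102, 102.4, 107.5 and 110.4 TPM in Con. Groups overlapped at every week. CAC minus Con was 0.30 ± 0.13 at 2 wk (adjusted p = 0.152), 0.18 ± 0.13 without the striatum-rich libraries (adjusted p = 0.483), and 0.12 ± 0.11 at 8 wk (adjusted p = 0.5).

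Slc32a1, the vesicular GABA transporter, at 2 wk had 27.0, 28.9, 38.4 and 57.5 TPM in CAC, 21.4, 29.1, 36.8, 37.7 and 42.5 TPM in NCAC and 32.8, 34.0, 39.3, 41.1 and 52.5 TPM in Con. At 4 wk the values were 31.9, 47.0, 50.1, 60.7 and 71.2 TPM in CAC, 35.0, 41.4, 41.7, 44.2 and 47.3 TPM in NCAC and 36.7, 38.5, 43.7, 45.1 and 66.0 TPM in Con. At 6 wk they were 34.9, 36.2, 39.4, 41.3 and 50.9 TPM in CAC, 46.5, 46.7, 50.6 and 51.2 TPM in NCAC and 34.7, 42.0, 44.2, 45.4 and 54.4 TPM in Con. The groups overlapped at each of these weeks, with 4 of the 5 CAC libraries at 6 wk below all NCAC libraries. At 8 wk the lowest, median and highest CAC libraries had 39.8, 43.0 and 56.4 TPM, against 46.0, 50.5, 52.3, 55.7 and 60.3 TPM in NCAC and 54.6, 56.3, 57.3, 57.4 and 59.1 TPM in Con. Of the CAC libraries 1 reached into the Con range and the others lay below it. The difference was -0.32 ± 0.15 (adjusted p = 0.153).

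Abat, the transaminase that breaks GABA down in neurons and astrocytes, was the gene that rose in CAC at 2 wk. It stood at 147, 150.3, 154 and 202 TPM in CAC, 133, 134, 135.5, 138 and 153 TPM in NCAC and 119.7, 133.5, 134, 135 and 137 TPM in Con. Every CAC library lay above every Con library, while CAC and NCAC overlapped. The difference to Con was 0.30 ± 0.09 (adjusted p = 0.0450). Replicate 1, the striatum-rich library, had the highest value, and the difference without it was 0.19. The call was also lost without CAC replicate 2 and without Con replicate 3, 4 or 5. Without the 3 striatum-rich libraries the difference was 0.19 ± 0.08 (adjusted p = 0.228).

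Later the groups overlapped. Abat at 4 wk had 117, 133, 138.5, 162 and 165 TPM in CAC, 116, 129.5, 132.5, 136 and 145 TPM in NCAC and 136, 153, 155, 159.5 and 182 TPM in Con. At 6 wk it had 120.5, 127.5, 133, 144 and 152 TPM in CAC, 121, 135.0, 135.0 and 147 TPM in NCAC and 105.5, 137, 139, 144.5 and 146 TPM in Con. For 8 wk the lowest, median and highest CAC values were 112, 121 and 130.5 TPM, against 116, 118, 131, 132 and 133 TPM in NCAC and 115, 116, 118, 125 and 127 TPM in Con. The CAC minus Con difference was -0.14 ± 0.08 at 4 wk, 0.01 ± 0.08 at 6 wk and 0.01 ± 0.08 at 8 wk.

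None of the 9 GABA-A subunit genes and neither GABA-B subunit gene passed in CAC against Con or against NCAC at any week. The subunit genes described from here on were chosen after their values were seen. Gabra4, an alpha subunit of receptors outside synapses, had 77.5, 86.9, 95.2 and 131 TPM in CAC at 2 wk, against 67.7, 71.3, 74.0, 84.0 and 88.4 TPM in Con. The CAC value of 131 TPM is that of the striatum-rich replicate 1, and the ranges overlapped. The difference was 0.32 ± 0.10 (adjusted p = 0.0527), and 0.17 ± 0.09 without the striatum-rich libraries (adjusted p = 0.320). Gabrd stood at 25.5, 28.6, 28.9 and 83.9 TPM in CAC at 2 wk, the last again replicate 1, against 24.5, 25.1, 25.5, 27.6 and 28.4 TPM in Con. Its difference was 0.47 ± 0.21 with that library and 0.08 ± 0.11 without the 3 striatum-rich libraries. In Con at 4 wk the striatum-rich replicate 2 had 65.3 TPM of Gabrd, against at most 28.04 TPM in the other Con libraries.

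Gabra2, an alpha subunit of synaptic receptors, averaged at 8 wk 138 ± 9.99 TPM in CAC (SD, n = 7), 152 ± 7.62 TPM in NCAC and 140 ± 6.10 TPM in Con (n = 5 each). Gabbr1 averaged 288 ± 10.1 TPM in CAC and 287 ± 10.6 TPM in Con. The differences of the 9 GABA-A subunit genes lay between -0.19 and 0.17 in CAC minus Con, with 5 positive and 4 negative. In CAC minus NCAC they lay between -0.29 and 0.13. The lowest was Gabrb2, a beta subunit, with 46.0 ± 4.55 TPM in CAC and 56.2 ± 4.42 TPM in NCAC (difference -0.29 ± 0.13, adjusted p = 0.244).

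Gphn, the scaffold that clusters synaptic GABA-A receptors, was higher in CAC than in Con at 8 wk, the week at which Con had its lowest mean. The lowest, median and highest CAC libraries had 76.6, 81.2 and 89.8 TPM, against 74.7, 78.7, 82.9, 86.5 and 86.8 TPM in NCAC and 69.9, 70.1, 72.5, 75.9 and 83.1 TPM in Con. All CAC libraries lay above 4 of the 5 Con libraries, and the remaining Con library lay within the CAC range. The difference to Con was 0.15 ± 0.05 (adjusted p = 0.0446), and to NCAC 0.01. In CAC the mean was 90.2, 87.1, 87.1 and 82.7 TPM at 2, 4, 6 and 8 wk, against 86.5, 90.4, 86.3 and 74.3 TPM in Con. The call was lost without CAC replicate 2, 4, 6 or 7, without Con replicate 1, 3, 4 or 5, and after removal of trends with GC content and length (0.12, adjusted p = 0.099).

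Earlier weeks showed no such separation for Gphn. At 2 wk it had 84.3, 85.3, 91.9 and 99.2 TPM in CAC, 85.1, 86.6, 88.6, 89.1 and 107 TPM in NCAC and 78.0, 85.6, 87.9, 88.4 and 92.3 TPM in Con. At 4 wk it had 83.8, 87.1, 87.7, 88.1 and 89.0 TPM in CAC, 77.6, 83.2, 87.8, 93.4 and 95.7 TPM in NCAC and 85.9, 87.4, 90.0, 93.5 and 95.2 TPM in Con. At 6 wk it had 79.2, 82.3, 87.0, 92.1 and 94.8 TPM in CAC, 79.7, 83.7, 86.9 and 88.4 TPM in NCAC and 81.2, 86.5, 86.7, 88.6 and 88.6 TPM in Con. All groups overlapped at these weeks. Nlgn2, the adhesion protein of inhibitory synapses, averaged 124 TPM in CAC, 123 TPM in NCAC and 132 TPM in Con at 8 wk, with a CAC minus Con difference of -0.09 ± 0.06.

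Pvalb, the calcium-binding protein of fast-spiking interneurons, had 50.7, 54.6, 66.4 and 122 TPM in CAC at 2 wk, 59.7, 62.8, 68.8, 75.5 and 81.2 TPM in NCAC and 65.9, 68.6, 76.2, 84.4 and 85.4 TPM in Con. At 4 wk it had 60.1, 64.8, 72.2, 83.6 and 83.9 TPM in CAC, 69.1, 70.2, 73.8, 76.1 and 82.0 TPM in NCAC and 51.7, 56.8, 66.6, 69.2 and 70.3 TPM in Con. At 6 wk the values were 58.2, 61.0, 65.3, 79.8 and 88.3 TPM in CAC, 64.3, 69.0, 69.8 and 74.6 TPM in NCAC and 68.8, 73.5, 76.3, 78.1 and 103 TPM in Con. The groups overlapped at each of these weeks. The 122 TPM in CAC at 2 wk and the 51.7 TPM in Con at 4 wk are those of striatum-rich libraries. Without the former, CAC at 2 wk reached 66.4 TPM, against a lowest Con value of 65.9 TPM. At 8 wk the lowest, median and highest CAC libraries had 68.6, 78.1 and 87.9 TPM, against 84.1, 85.0, 88.4, 92.6 and 125 TPM in NCAC and 83.2, 87.2, 88.3, 100 and 100.3 TPM in Con. The CAC range reached into both others from below, with 5 of the 7 CAC libraries under every NCAC and Con library. The difference was -0.23 ± 0.13 against Con (adjusted p = 0.221) and -0.27 ± 0.13 against NCAC (adjusted p = 0.307). Over the mean of the 4 weeks Pvalb was called lower in CAC than in Con only without the 3 striatum-rich libraries. There 4.22% of all genes were lower and 15.5% higher.

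The other interneuron markers also did not pass in CAC against Con or NCAC at any week. Sox6, a transcription factor of Pvalb and somatostatin interneurons that is also present in glial precursors, had 4.98, 5.62 and 6.41 TPM as the lowest, median and highest CAC values at 8 wk, against 6.12, 6.98, 7.13, 7.43 and 7.70 TPM in NCAC and 5.80, 5.92, 6.28, 6.83 and 8.01 TPM in Con. CAC overlapped both. The difference was -0.30 ± 0.10 to NCAC (adjusted p = 0.095) and -0.19 ± 0.10 to Con (adjusted p = 0.170). After removal of trends with GC content and length it passed in both, at -0.33 (adjusted p = 0.0307) and -0.30 (adjusted p = 0.0274). The summed level of 5 oligodendrocyte precursor markers at 8 wk was 121 to 163 TPM in CAC, 141 to 189 TPM in NCAC and 145 to 166 TPM in Con, and its part in the Sox6 values was not tested. Calb2, the calretinin of another interneuron class, ran from 40.4 to 86.8 TPM in CAC at 8 wk, from 65.9 to 85.7 TPM in NCAC and from 59.8 to 87.4 TPM in Con. Its difference to Con was -0.39 ± 0.20 (adjusted p = 0.178).

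Against NCAC, 0 of the 28 genes passed at each week, where 0%, 0.0128%, 1.77% and 1.83% of all genes did at 2, 4, 6 and 8 wk. At 6 wk 1.33% of all genes were higher and 0.442% lower, and at 8 wk 1.26% were higher and 0.564% lower. The counts at an unadjusted p under 0.05 were 3, 3, 2 and 4, and limma's voom on recovered reads called 0, 0, 0 and 1 (Sox6). NCAC against Con gave 0 at every week and 0% of all genes, with 1, 9, 0 and 1 of the 28 at an unadjusted p under 0.05 and 0 by voom. The 9 at 4 wk were all lower in NCAC. Without the share of all genes at the same unadjusted p, neither that count nor its direction is a result about these genes. The 9 included Gad1 at -0.28 ± 0.08 (adjusted p = 0.312), Reln at -0.42 ± 0.12 (adjusted p = 0.294) and Gabra3 at -0.44 ± 0.14 (adjusted p = 0.332). Con at that week holds a striatum-rich library, and 9 of the 10 striatum markers were lower in sign in NCAC, with a median of -0.81. Without the 3 striatum-rich libraries Gad1 differed by -0.24 ± 0.08, Reln by -0.39 ± 0.12 and Gabra3 by -0.47 ± 0.15, each with an adjusted p of 0.290. CAC minus Con and NCAC minus Con share the Con libraries. Over the mean of the 4 weeks, 0 of 28 passed in CAC against Con, where 19.8% of all genes did (14.9% higher and 4.95% lower), and 0 in NCAC against Con. The 95% intervals of all 28 lay within 0.5 log2 units in these means.

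Over time in the CAC group, 12 of the 28 genes fell at 8 wk relative to 2 wk and 0 rose, which is 42.9% beside 20.1% of all genes lower and 10.8% higher (31% together). The median difference of the 28 was -0.21, beside -0.06 over all genes. The mice at 8 wk were also older, and time and age cannot be told apart. Those that fell were 3 of the 4 synthesis genes (Gad1, Gad2 and Abat), 5 of the 9 GABA-A subunit genes (Gabra2, Gabra4, Gabrb2, Gabrg1 and Gabrd), Gabbr1, Slc12a2, Adarb2 and Sox6. With median-of-ratios scaling 9 were lower (13.2% of all genes) and 2 higher (Nlgn2 and Dlx1, with 15.4% of all genes). Without the 3 striatum-rich libraries 8 were lower and 1 higher (Pvalb, 0.45 ± 0.12), beside 15% and 7.44% of all genes.

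Of the 12, Abat, Gabra4, Gabrb2 and Gabrg1 passed under each of the 11 other settings and each of the 11 leave-one-out fits. Gabra4 had a lowest, median and highest value of 58.5, 71.0 and 79.1 TPM in CAC at 8 wk, against 77.5, 86.9, 95.2 and 131 TPM at 2 wk. The ranges touched at 1 library of each week. The difference was -0.46 ± 0.09 (adjusted p = 0.000244), and -0.31 ± 0.08 without the 3 striatum-rich libraries. Gabrb2, whose window with the TATAAA letters is printed above, had 38.6, 47.0 and 53.1 TPM at 8 wk, against 52.6, 70.5, 74.4 and 77.1 TPM at 2 wk. Again 1 library of each week overlapped, and the difference was -0.56 ± 0.14 (adjusted p = 0.00180).

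Gabrg1, the gene with the AT-rich window, had 8.21, 9.51 and 10.7 TPM in CAC at 8 wk, against 13.2, 13.7, 13.7 and 14.4 TPM at 2 wk. No library of 8 wk reached the 2 wk range. Its difference was -0.52 ± 0.11 (adjusted p = 0.000567). For Abat, whose values are given above, the 8 wk and 2 wk ranges did not overlap either, and the difference was -0.42 ± 0.08 (adjusted p = 0.000205). In the leave-one-out fits it ran from -0.47 to -0.31. Gabrb1, which starts beside Gabra4, differed by -0.14 ± 0.10 (adjusted p = 0.273). Gabra2, in the same cluster on chromosome 5, differed by -0.26 ± 0.07 (adjusted p = 0.00605).

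The other calls over time in CAC rested more on single libraries. Gabrd differed by -0.66 ± 0.20 (adjusted p = 0.00925), and by -0.26 without replicate 1 of 2 wk, where the call was lost. The calls of Gad1 (-0.23 ± 0.08, adjusted p = 0.0265), Gad2 (-0.35 ± 0.12, adjusted p = 0.0234), Gabbr1 (-0.19 ± 0.06, adjusted p = 0.0102) and Adarb2 (-0.43 ± 0.13, adjusted p = 0.00800) were also lost without that library. Gad1 then differed by -0.12, Gad2 by -0.22, Gabbr1 by -0.13 and Adarb2 by -0.34. Those of Gad1 and Gad2 were lost as well without CAC replicate 5 of 2 wk or replicate 1 of 8 wk, and that of Gad1 without replicate 5 of 8 wk. Slc12a2, at -0.54 ± 0.18 (adjusted p = 0.0166), lost its call without replicate 2 or 4 of 2 wk or replicate 6 of 8 wk. Gabra2 lost its call without replicate 2 of 2 wk. Sox6 differed by -0.41 ± 0.10 (adjusted p = 0.00277) and passed in every leave-one-out fit.

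Marker lists of other cells and regions moved in the same comparison. The sum of 7 oligodendrocyte markers was 1180 to 2190 TPM in CAC at 8 wk, against 2450 to 3350 TPM at 2 wk, and 7 of 7 passed as lower. That of 9 thalamus markers was 44.0 to 62.1 TPM, against 68.3 to 359 TPM, and 8 of the 8 tested passed as lower. The 7 astrocyte markers summed to 1890 to 2400 TPM at 8 wk, against 2280 to 2540 TPM at 2 wk, with 4 lower and 2 higher. The 10 striatum markers summed to 151 to 202 TPM, against 164 to 1270 TPM. The 7 excitatory neuron markers summed to 4120 to 5000 TPM at 8 wk, against 3230 to 4100 TPM, with 3 higher and 0 lower. Over the same time in Con, the 7 oligodendrocyte markers were all lower in sign (median -0.52), and 1 passed. In NCAC 6 of the 7 were lower in sign (median -0.12), and 0 passed. The part of these cells and regions in the lower levels of the 12 genes was not tested, except that the figures without striatum-rich libraries are given above. Choroid plexus markers varied widely, with 6 of them summing to 122 to 5600 TPM in CAC at 8 wk, against 118 to 9840 TPM at 2 wk, and its part in Slc12a2 was not tested.

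**Figure D3:**
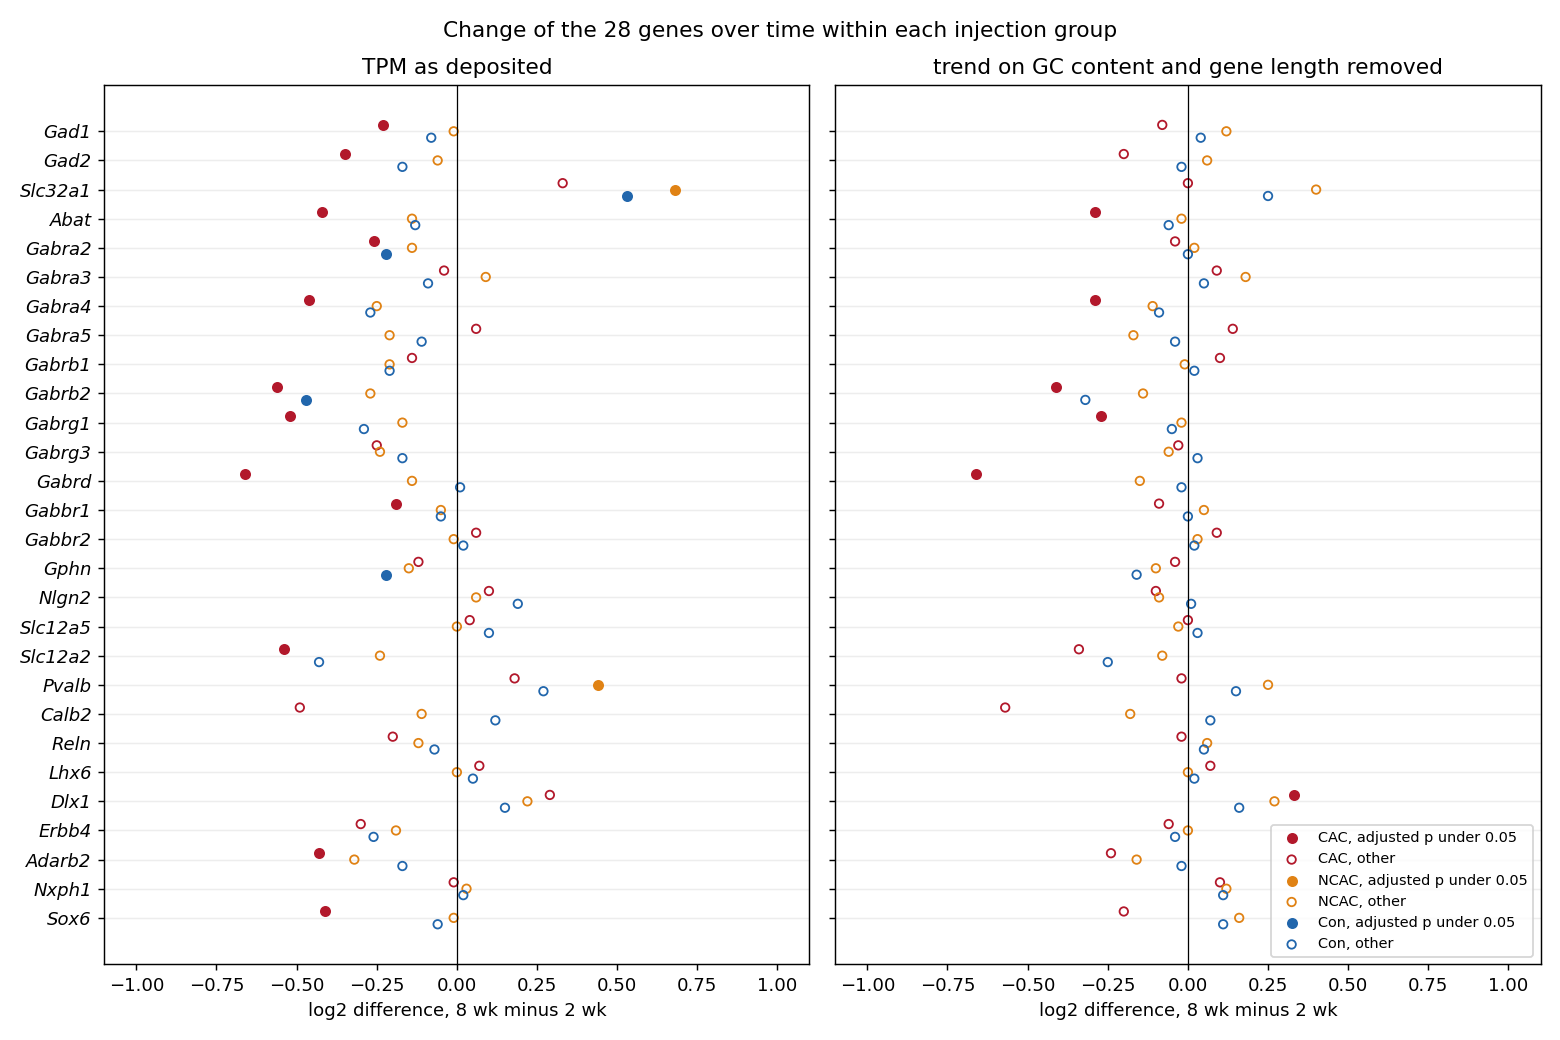
Log2 difference of 8 wk minus 2 wk for the 28 genes in CAC, NCAC and Con, from the deposited TPM (left) and after removal of each library's trend with GC content and gene length (right); filled points have an adjusted p under 0.05 and open points do not. In CAC, 12 genes are filled to the left of 0 in the left panel, and 5 to the left and 1 to the right in the right panel.

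In NCAC over the same time, 2 of 28 genes rose and 0 fell, where 4.68% of all genes rose and 9.35% fell (14% together). These were Slc32a1 at 0.68 ± 0.17 (adjusted p = 0.0103), with 46.0 to 60.3 TPM at 8 wk, against 21.4 to 42.5 TPM at 2 wk, and Pvalb at 0.44 ± 0.14 (adjusted p = 0.0320), with 84.1 to 125 TPM, against 59.7 to 81.2 TPM. Neither pair of ranges overlapped. Without the 3 striatum-rich libraries, none of them NCAC, 2 rose and 1 fell, beside 5.12% and 11.2% of all genes. In Con, 1 rose, where 1.67% of all genes did, and 3 fell, where 8% did (9.67% together). With only the compared groups in the fit 12 of 28 passed in Con, but the share of all genes under that fit is not given here. That count is therefore no result about the 28 genes. With GC and length trends removed 0 passed, beside 0.173% of all genes. Slc32a1 rose by 0.53 ± 0.17 (adjusted p = 0.0373), with 54.6 to 59.1 TPM at 8 wk, against 32.8 to 52.5 TPM at 2 wk. Gphn differed by -0.22 ± 0.06 (adjusted p = 0.0161), Gabrb2 by -0.47 ± 0.14 (adjusted p = 0.0242) and Gabra2 by -0.22 ± 0.07 (adjusted p = 0.0429). With median-of-ratios scaling 2 rose in Con (Slc32a1 and Nlgn2) and 1 fell (Gabrb2), beside 3.13% and 3.1% of all genes. Without the 3 striatum-rich libraries, none of them in the Con groups compared, 2 rose and 4 fell, beside 2.05% and 9.08% of all genes.

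Single libraries decided several of these calls. In Con, that of Gphn was lost without replicate 1 of 2 wk, that of Gabrb2 without replicate 1 or 2 of 2 wk or 4 or 5 of 8 wk, and those of Gabra2 and Slc32a1 without most single libraries. In NCAC, Slc32a1 lost its call without replicate 2 of 2 wk (0.54), and Pvalb without replicate 2 or 5 of 2 wk or 1 or 5 of 8 wk. Whether the change over time differed between CAC and Con was tested directly, as the difference of the 2 changes. There 0 of 28 passed (limma), where 0.00641% of all genes did, with 3 at an unadjusted p under 0.05 and 0 by voom. The smallest adjusted p was 0.383, for Abat at -0.29 ± 0.12. The lower levels at 8 wk were thus not shown to differ between CAC and Con.

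Differences over time went with the base composition of the genes. Across the 28 genes, Spearman's rho of the 8 wk minus 2 wk difference with GC content was 0.51 in CAC, 0.60 in NCAC and 0.83 in Con, and that with exon length -0.37, -0.47 and -0.50. The points share libraries, and genes are not independent replicates. The 12 genes that fell in CAC had a median GC content of 45.2% and a median length of 7694 bases, and the other 16 of 50.2% and 5100 bases. After each library's trend with GC content and length was removed, 5 fell (17.9%, beside 9.19% of all genes) and 1 rose (beside 11.7%). Abat fell by 0.29, Gabra4 by 0.29, Gabrb2 by 0.41, Gabrg1 by 0.27 and Gabrd by 0.66 log2 units, and Dlx1 rose by 0.33. In NCAC and in Con 0 of 28 passed after that removal, where 4.24% and 0.173% of all genes did.

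Ratios of 2 genes within a library do not depend on its scaling. Of 40 such comparisons (exact two-sided permutation tests, 5 gene pairs, CAC against Con and NCAC at each week), 5 had a p under 0.05 and 0 an adjusted p under 0.05. The log2 ratio of Pvalb to Gad1 at 8 wk was -1.13 ± 0.16 in the 7 CAC libraries and -0.80 ± 0.12 in the 5 Con libraries (SD; exact permutation p = 0.00126, the smallest this design can give; adjusted over the 40, 0.0505). The CAC libraries lay between -1.40 and -0.98 and the Con libraries between -0.96 and -0.66, so the ranges did not overlap. With the GC and length trends removed the difference was -0.104 (exact permutation p = 0.179), in place of -0.34. Against NCAC it was -0.27 (exact permutation p = 0.0290, adjusted 0.232).

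**Figure D4:**
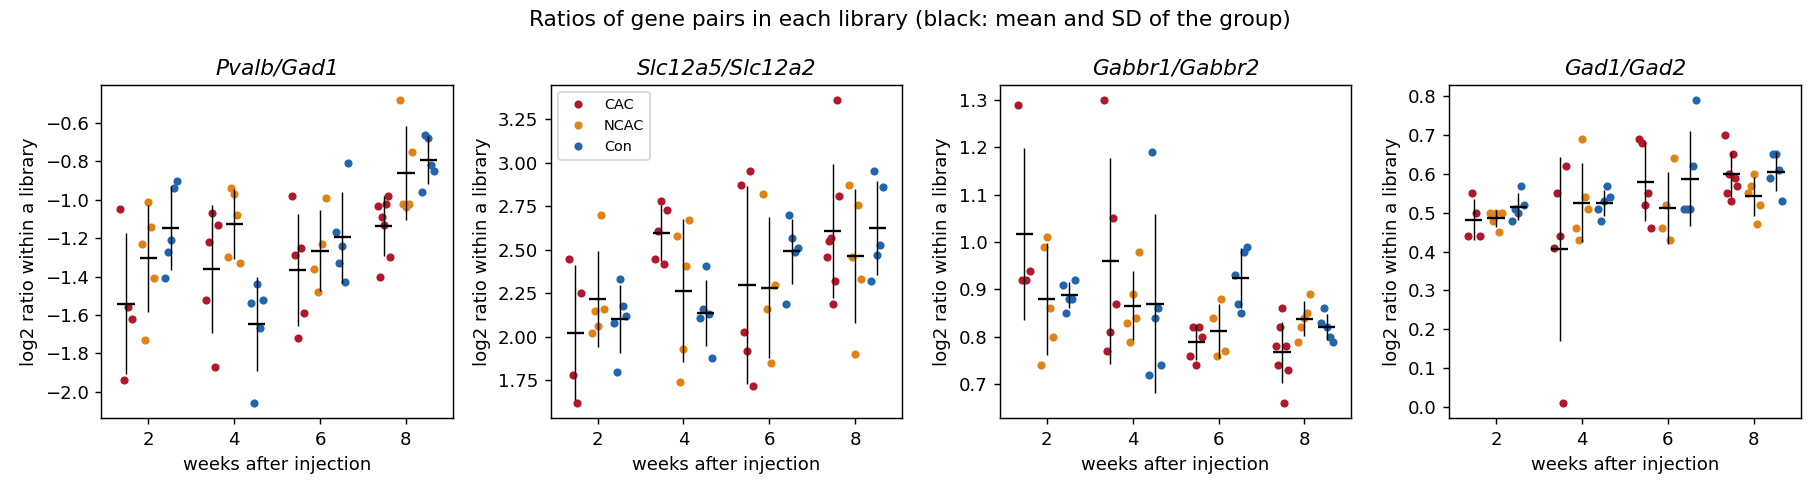
Log2 ratio within each library of Pvalb to Gad1, Slc12a5 to Slc12a2, Gabbr1 to Gabbr2 and Gad1 to Gad2 against weeks after injection, with CAC, NCAC and Con side by side; points are libraries and black bars are means with their SD. At 8 wk the CAC libraries for Pvalb to Gad1, at -1.40 to -0.98, all lie below the Con libraries, at -0.96 to -0.66.

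The ratio of the chloride exporter Slc12a5 to the importer Slc12a2 was higher in CAC than in Con at 4 wk. It was 2.45, 2.61, 2.78, 2.42 and 2.73 in CAC libraries, against 2.11, 2.16, 2.41, 2.13 and 1.88 in Con libraries, with no overlap. The difference was 0.46 (exact permutation p = 0.00794, the smallest possible, n = 5 each; adjusted 0.106). Slc12a2 made most of it, with 37.9 ± 4.71 TPM in CAC and 50.3 ± 5.42 TPM in Con, and its own difference was -0.41 ± 0.18 (adjusted p = 0.210). The choroid plexus, an epithelium that makes much Slc12a2, moved with it: its 6 markers summed to 185 to 1650 TPM in CAC and to 2540 to 5000 TPM in Con at 4 wk, without overlap, and its part in this ratio was not tested. The same ratio differed by -0.08 at 2 wk, -0.19 at 6 wk and -0.02 at 8 wk. Gabbr1 to Gabbr2 was 0.79 ± 0.04 in CAC and 0.92 ± 0.06 in Con at 6 wk (difference -0.14, exact permutation p = 0.00794, n = 5 each; adjusted 0.106), and these ranges did not overlap. At 2 wk it differed by 0.13 (exact permutation p = 0.0159; adjusted 0.159), and by 0.042 without the striatum-rich CAC replicate 1. Gad1 to Gad2 and Gad1 to Slc17a7, the vesicular glutamate transporter of excitatory neurons, gave no p under 0.05 in the 8 comparisons each.

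Other genes of the pathway were taken from 2 lists. Of 29 further GABA pathway genes 26 were tested, and at 8 wk 5 were higher and 0 lower in CAC than in Con, where 11.3% of all genes were higher and 3.2% lower (4.63% and 4.61% with median-of-ratios scaling). Gabrr2, a rho subunit, rose by 1.46 ± 0.33 (adjusted p = 0.00415), with 3.36 ± 1.35 TPM in CAC and 0.817 ± 0.269 TPM in Con. Its difference to NCAC was 1.14 ± 0.33 (adjusted p = 0.0551). Trak2, a trafficking protein that binds GABA-A subunits, rose by 0.21 ± 0.06 (adjusted p = 0.0115; 0.0547 with median-of-ratios scaling), and differed from NCAC by 0.07 ± 0.06. The astrocyte GABA transporter Slc6a11 rose at 2 wk by 0.42 ± 0.10 (adjusted p = 0.0264; 0.155 without the 3 striatum-rich libraries), with 192 ± 39.4 TPM in CAC and 142 ± 13.3 TPM in Con. Kctd16, an auxiliary subunit of GABA-B receptors, was lower in CAC than in NCAC at 6 wk by -0.61 ± 0.14 (adjusted p = 0.0166) and at 8 wk by -0.45 ± 0.12 (adjusted p = 0.0322). Its CAC minus Con difference was -0.36 ± 0.13 at 6 wk (adjusted p = 0.218) and -0.27 ± 0.12 at 8 wk (adjusted p = 0.101). NCAC minus Con was 0.25 ± 0.14 and 0.17 ± 0.13 at these weeks and did not pass.

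Of 37 further interneuron genes 36 were tested, and at 8 wk 0 were higher and 4 lower in CAC than in Con, beside the same shares of all genes. The neuropeptide gene Cck, which pyramidal cells also express, stood at 248 ± 69.4 TPM in CAC and 515 ± 31.4 TPM in Con (-1.1 ± 0.29, adjusted p = 0.0104). NCAC, at 247 to 395 TPM, overlapped CAC and lay below all Con libraries, with a CAC minus NCAC difference of -0.25 ± 0.29 (adjusted p = 0.738). Npy, a neuropeptide of interneurons, stood at 81.7 ± 11.6 TPM in CAC, 126 ± 5.84 TPM in NCAC and 122 ± 18.2 TPM in Con. It fell by 0.63 relative to NCAC (SE 0.13, adjusted p = 0.00748) and by 0.58 relative to Con (SE 0.13, adjusted p = 0.00520; 0.367 after removal of the GC and length trends). At 2 wk, 0 of the 36 were higher in CAC than in Con and 3 lower, where 1.72% of all genes were higher and 1.98% lower. Npy was among the 3, at -0.62 ± 0.15 (adjusted p = 0.0273, and 0.0636 without the striatum-rich libraries). All 3 calls were lost without those libraries, and also with the GC and length trends removed. The Npy difference to Con changed by 0.04 ± 0.20 from 2 wk to 8 wk (adjusted p = 0.97). Among the 28 genes, by comparison, the lowest differences to Con at 8 wk were those of Calb2, Slc32a1 and Pvalb, and none of these passed.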

How the data were processed

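Hippocampal RNA from 60 libraries in 12 groups of injection and week was analysed. Extraction used Trizol, and the TruSeq stranded mRNA kit and an Illumina NovaSeq instrument followed, per the labels' protocols. The authors deposited 1 table of TPM, a length-scaled abundance with the same total in every library, per gene symbol. Per the submitters' processing notes the build was mm10. The sources used here give no aligner, counter, annotation or use of strand. Such values keep differences between libraries in recovery by GC content or length, and a change in very abundant genes shifts the others.

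Samples were grouped by their labels. The members and gene lists were chosen with earlier results of these data known. Values per library were printed for Gad1, Gad2, Slc32a1 and Pvalb and for the members past the threshold between injections, and up to 6 related genes were named by smallest p. Other members singled out were chosen after their values were seen. The test was limma 3.58.1 (R 4.3.3), run with a trend of variance on level and 12 group means. It used log2(TPM + 0.5) of the 15608 genes that reached 1 TPM in 4 or more libraries. That scale understates changes of low genes. Ratios were tested by exact permutation with numpy 2.4.6 in python 3.11.15, and Spearman's rho was computed with scipy 1.17.1. Whole reads were recovered within 0.02 reads for all 24227 genes above 0, and limma's voom was run on them. For 16272 genes this used the annotated exon length. For the others the smallest length that gave whole reads was taken, so their read numbers are less certain. No libraries were identical (0). Trends with GC content and length were removed with natural splines of 5 degrees of freedom for 15035 genes (96.3%) from GENCODE M21. In all, 11 settings besides leave-one-out were tried. The fits were tested on simulated data.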

Additional observations from a re-analysis of the deposited data

Results flagged for a closer look

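In groups of 4 to 7 libraries, a library counts as far from the others when its gap to the nearest is large for the range of the group (Dixon's test at 95%). Chance alone gives about 1 in 20 groups, and 29 of the 336 combinations of gene and group were found, so single cases carry little weight. Values are TPM, with the nearest other library of the group second.

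The striatum-rich libraries held 6 of them. Replicate 1 of CAC at 2 wk had Gabrd at 83.9 (28.9) and Abat at 202 (154). Replicate 2 of Con at 4 wk had Gabrd at 65.3 (28.04), Slc32a1 at 66.0 (45.1), Gabrg3 at 14.3 (11.1) and, on the low side, Gabbr2 at 134 (171). Replicate 5 of Con at 6 wk had Pvalb at 103 (78.1) and low values of Abat at 106 (137), Gabra5 at 190 (216), Gabrb1 at 65.8 (88.6) and Gphn at 81.2 (86.5). Replicate 4 of CAC at 4 wk had Gabrg1 at 20.7 (12.3), Dlx1 at 19.4 (11.8) and Slc12a2 at 46.0 (38.1). Replicate 2 of NCAC at 2 wk had Gad1 at 200 (168), Gad2 at 143 (122) and Gphn at 107 (89.1).

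The remaining cases were single. In CAC, Gabrb1 stood at 105 (83.5) in replicate 2 of 2 wk. In NCAC, Sox6 stood at 8.21 (6.51) in replicate 5 of 4 wk, Nlgn2 at 140 (119) in replicate 1 of 6 wk, Pvalb at 125 (92.6) in replicate 1 of 8 wk and Gad1 at a low 156 (173) in replicate 5 of 8 wk. In Con, Lhx6 stood at 16.8 (14.6) in replicate 3 of 2 wk and Abat at a low 120 (134) in replicate 4 of 2 wk. Sox6 stood at 8.76 (7.81) in replicate 1 of Con at 4 wk, Gabra4 at 79.9 (73.8) in replicate 1 of 6 wk and Gabra3 at 77.5 (67.0) in replicate 2 of 6 wk. Gabrd stood at 32.6 (25.9) in replicate 2 of Con at 8 wk, and Erbb4 at 24.6 (20.8) in replicate 3.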

How the results depend on the processing

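Each count is the number of the 28 genes called. The share of all genes called also differed between settings. A count without that share is no result about these genes. For CAC against Con at 2 wk (1 as reported), 2 passed with a filter at TPM of at least 5, and 0 with no filter, median-of-ratios scaling, only the compared groups, the replicate block, GC and length trends removed, libraries rich in striatum, thalamus or erythroid genes left out, the 3 striatum-rich left out, or voom. For CAC against Con at 8 wk (1), 3 passed with only the compared groups (Slc32a1, Pvalb and Gphn) and 0 with no filter, median-of-ratios scaling, the replicate block or voom. With the GC and length trends removed the 1 was Sox6, beside 10.2% of all genes. For CAC against NCAC at 8 wk (0), 1 passed (Sox6) with those trends removed, without rich libraries and by voom. With the trends removed 3.05% of all genes passed. For the mean of the 4 weeks, CAC against Con (0) gave 1 with median-of-ratios scaling or voom (Gabra2), 1 without the 3 striatum-rich libraries (Pvalb) and 2 with trends removed (Gabra2 and Sox6). The shares of all genes were 16.6% with median-of-ratios scaling, 19.7% without the 3 and 17.9% with trends removed. CAC against NCAC (1) gave 2 with the TPM filter at 5, median-of-ratios scaling or voom, 4 with trends removed (Gabra2, Gabrb1, Gabrb2 and Erbb4) and 0 without the 3. Here the shares of all genes were 14.4% with median-of-ratios scaling, 14.5% with trends removed and 17.2% without the 3. With median-of-ratios scaling the split was 1 higher and 1 lower. Over time, CAC (12) gave 6 with trends removed, beside 20.9% of all genes. NCAC (2) gave 0 with only the compared groups or trends removed and 5 without rich libraries, and Con (4) gave 2 with no filter, 12 with only the compared groups and 0 with trends removed. Leave-one-out counts were 0 to 4 (CAC against Con at 2 wk), 0 to 1 (8 wk), 0 to 1 and 1 to 3 (means against Con and NCAC), 8 to 13 (CAC over time), 0 to 4 (NCAC) and 0 to 7 (Con), and 0 in the other comparisons. The voom, 3-library and ratio-trend alternatives were chosen after seeing the data. The log2 ratio of Slc12a5 to Slc12a2 at 8 wk, -0.019, was 0.078 with trends removed and -0.144 to 0.061 in leave-one-out, and that of Gad1 to Gad2, -0.007, was 0.001, 0.000 without rich libraries and -0.026 to 0.004. Same-numbered libraries did not deviate together throughout (r -0.28 to 0.35 in 56 pairs, 11 over 0.1). These correlations cannot exclude a pairing by number, and the main fits treated libraries as unpaired. The replicate block ended the calls of Abat at 2 wk and Gphn at 8 wk. Except where a setting has fewer libraries or genes, the cause of each change was not tested. All 28 genes had reads in every library, with a lowest number of 336 for Dlx1, and the part of depth was not tested.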
